A study of Mus musculus with 21 samples.

Results

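DNA replication genes were followed here through nascent RNA, mRNA and mRNA stability in mouse embryonic stem cells (ESCs) with and without DDX6. The 43 genes were taken by symbol and matched to a single Ensembl gene each, among 51467 mouse genes counted, and all 43 were among the 14518 genes tested. They fall into 10 groups: origin recognition and licensing, the MCM2-7 helicase, its activators, the PCNA clamp and its loader, polymerase alpha with primase, polymerases delta and epsilon, the single-strand binding protein RPA, Okazaki fragment maturation, nucleotide supply and the histone chaperone CAF-1. DDX6 is an RNA helicase that works with decapping and deadenylation factors and with the miRNA machinery in the cytoplasm. The study asked whether DDX6 ties the translation of an mRNA to its decay, and the libraries used here measured RNA synthesis, RNA level and their ratio.

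The wild-type group held 3 cultures of V6.5 ESCs, a widely used mouse line. The KO group held 4 cultures of V6.5 cells edited with CRISPR-Cas9 in the Ddx6 coding sequence, 2 from clone 1 and 2 from clone 2. Each clone is a single line, so the edit and any other change of that line cannot be told apart. Both clones also shared an upward shift of chromosome 6 genes in mRNA, by 0.52 in clone 1 and 0.56 in clone 2 (log2, against the other chromosomes). A change that both clones share can thus not be told apart from the edit either, for any gene. Every culture, wild type included, was grown in serum with LIF and 2i (PD0325901 and CHIR99021), which hold ESCs in the naive state, and was labelled with 500 µM 4-thiouridine (4sU) for 30 min. RNA of a culture was then split. RNA that had taken up the label was pulled down to give nascent RNA, and total RNA depleted of rRNA gave the mRNA level. The ratio of total over 4sU RNA served as a relative measure of mRNA stability.

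Replication proceeds in steps. In G1, the origin recognition complex with CDC6 and CDT1 loads the MCM2-7 helicase onto origins. In S phase, CDC45 and GINS join the helicase, polymerase alpha-primase lays down primers, polymerases epsilon and delta extend the leading and lagging strand under the PCNA clamp, and FEN1 and LIG1 join Okazaki fragments. Most of these genes are transcribed under E2F factors at the G1/S boundary, and ESCs, which have a short G1 and spend much of their cycle in S phase, express them highly.

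Ddx6 itself was lower in the total RNA of all 4 KO cultures. Its level was 333, 383 and 391 CPM (counts scaled to library size, corrected by TMM, edgeR's factor for differences in composition) in the 3 wild-type cultures, 57.2 and 67.7 in clone 1 and 23.1 and 21.5 in clone 2. Its nascent RNA was 242, 245 and 270 CPM in wild type, 224 and 231 in clone 1 and 163 and 145 in clone 2, so that it was lower in both clones and lowest in clone 2. Libraries held 2441639 to 3570192 counts for 4sU and 5724179 to 7369651 for total RNA. The ESC markers Pou5f1, Sox2, Nanog, Zfp42, Esrrb and Klf4 summed to 3059 to 3173 CPM in wild-type total RNA and 3570 to 3790 CPM in KO. Nanog lies on chromosome 6, whose tested genes had a median log2 change of 0.43 in mRNA. Of 7 fibroblast markers, whose sum was 12.2 to 15.9 CPM in wild type and 15.9 to 17.6 CPM in KO, Dcn was at 0 in total RNA, Col1a2, Col3a1, Lum and Dcn were too low to test, Col1a1 and Thy1 rose in mRNA (0.97 and 1.47) and Pdgfrb fell by 0.94. Primitive endoderm markers summed to 8.68 to 14.1 CPM in wild type and 12.1 to 18.1 CPM in KO. The 3 of them tested changed by 0.65 to 0.87 in mRNA. Sox17 and Gata6, too low to test, had 10 to 14 and 3 to 7 counts in wild-type total RNA and 1 to 8 and 1 to 3 in KO. Primed and mesendoderm markers summed to 25.7 to 34.7 CPM in wild type and 13.4 to 17.8 CPM in KO. Of 3 tested, 2 fell in mRNA, Otx2 by 2.53, and 1 did not, at 0.25. The part of these cell states in the results was not tested. Scaling moved all genes together: without TMM, by library size alone, the median log2 change of all 14518 genes was 0.21 for nascent RNA and 0.06 for mRNA, against 0.00 and -0.10 with TMM. Changes of the replication genes are therefore also given relative to the median of all genes.

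In wild-type ESCs the replication genes were abundant and their mRNAs, as a set, were on the stable side. Per kilobase of exon, the wild-type total RNA level of all 43 lay above the median of tested genes. The median log2 ratio of total over 4sU RNA was 0.81 for the 43 and 0.07 for all tested genes, and 32 of the 43 lay above the 50th percentile. The spread among them was wide. Pold1, the catalytic subunit of polymerase delta, had the highest ratio at 2.70 ± 0.32 (SD, n = 3), the 99.9th percentile of tested genes, followed by Rpa1 at 2.51 ± 0.05. Pcna, the sliding clamp, had the lowest at -1.18 ± 0.17, the 23.8th percentile, followed by Gins3 at -0.80 ± 0.13, Cdc6 at -0.75 ± 0.08 and Cdt1 at -0.62 ± 0.06. By group, the median ratio was highest for polymerases delta and epsilon, at 1.57 over 5 genes, and for polymerase alpha-primase, at 1.41 over 4 genes, and lowest for origin recognition and licensing, at 0.01 over 5 genes. These ratios compare genes on the same scale and are not half-lives.

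**Figure D1:**
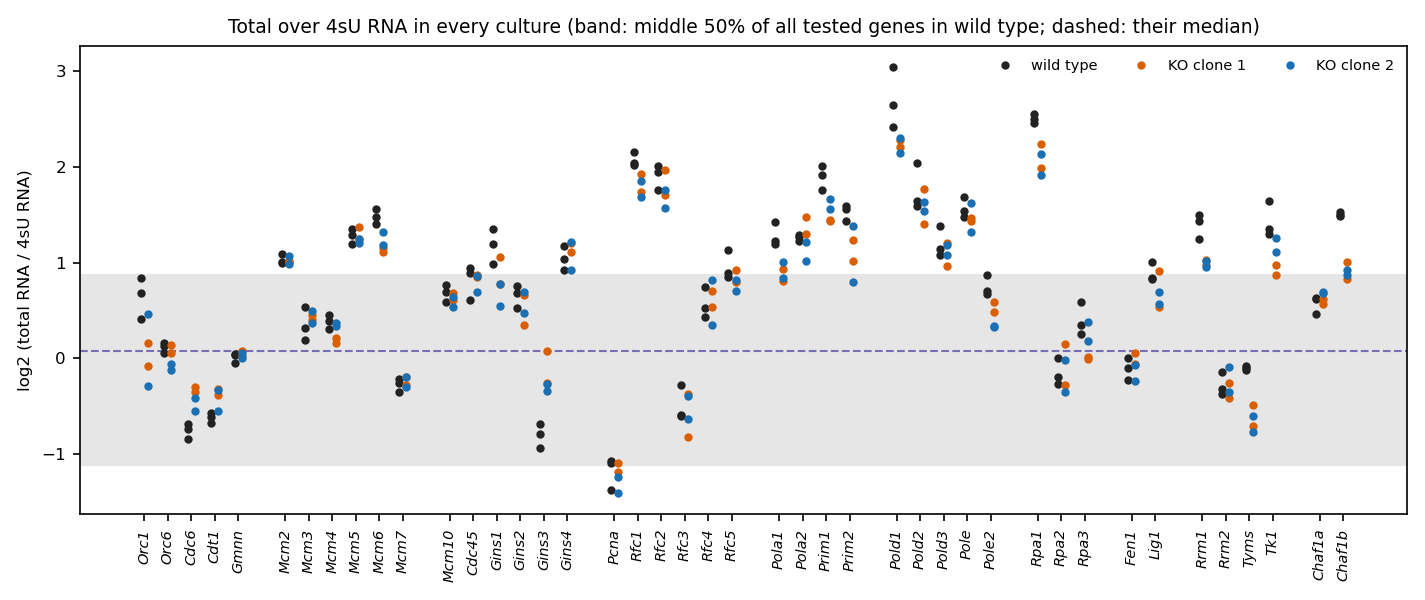
Log2 ratio of total over 4sU RNA (y axis) for each of the 43 replication genes (x axis, by group) in every culture; black points are wild type, orange KO clone 1, blue KO clone 2, the band is the middle 50% of all tested genes in wild type and the dashed line their median of 0.07. Pold1, Rpa1 and Rfc1 stand at the top, Pcna at the bottom, and the KO points of Chaf1b, Tyms and Rpa1 all lie below their wild-type points.

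In Ddx6 KO ESCs most replication mRNAs were lower, by less than 2-fold each. For mRNA, 34 of 43 fell and 1 rose (edgeR quasi-likelihood test, adjusted p below 0.05), where 31% of all tested genes fell and 19.5% rose. The median log2 change was -0.35 for the 43 genes and -0.10 for all tested genes. For nascent RNA, 19 fell and 2 rose, against 21% and 20.6% of all tested genes, with medians of -0.19 and 0.00. For mRNA stability, 9 fell and 2 rose, against 8.6% and 3.78%, with medians of -0.11 and -0.09. Counting only changes past 2-fold, 0 members remained in any measure (edgeR), against 5.79% of all tested genes lower and 5.14% higher in nascent RNA, 4.86% and 5.28% in mRNA, and 0.393% and 0.689% in stability, while 27, 36 and 16 members had an unadjusted p below 0.05. Among the 5985 tested genes with at least the mean total RNA of the lowest member, 42.7% fell and 20.1% rose in mRNA, 23.4% and 26.8% in nascent RNA and 17.7% and 5.6% in stability. Under library-size scaling the members' median nascent change turned to 0.02 and their mRNA change was -0.20, while the difference from the median of all genes was -0.19 for nascent RNA under both scalings, and -0.26 with TMM and -0.25 without it for mRNA. Single calls moved with it. Without TMM, 12 of the mRNA falls were lost (Orc6, Cdc6, Mcm10, Gins2, Gins4, Rfc4, Rfc5, Pola1, Prim1, Prim2, Pole and Pole2) and Mcm2, Pold3 and Rpa3 rose. In nascent RNA 8 calls were lost and 7 rises gained, those of Mcm2, Rfc1, Pola1, Prim1, Prim2, Pold3 and Rpa1. By group, the median mRNA change was below 0 in all 10 groups under both scalings. Median nascent changes turned positive without TMM in 5 groups, namely helicase activation (0.06), polymerases delta and epsilon (0.02), RPA (0.18), nucleotide supply (0.13) and CAF-1 (0.02). In bulk RNA, fewer cells in S phase and less RNA per cell cannot be told apart. In the same libraries 13 of 14 genes of G2 and M phase fell in mRNA and 12 of 14 in nascent RNA, with summed total RNA of 4482 to 4675 CPM in wild type and 3432 to 3594 CPM in KO; the part of cell-cycle distribution in the result was not tested.

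The fall was present in each culture. The 43 genes together made up 10781 to 11050 CPM of wild-type total RNA and 8198 to 8473 CPM of KO total RNA, with no overlap. Their median log2 difference from the wild-type mean in total RNA was -0.30 and -0.36 in clone 1 and -0.33 and -0.36 in clone 2. In nascent RNA the 4 KO medians ran from -0.21 to -0.12. Between the clones, no member differed in nascent RNA, mRNA or stability (edgeR, 25, 43 and 1 of all tested genes did, or 0.172%, 0.296% and 0.00689%). For single genes the 3 wild-type and 4 KO cultures allow a smallest two-sided p of 0.0571 in an exact permutation test, so non-overlapping values are reported as such. All 4 KO cultures lay below all 3 wild-type cultures for 37 of 43 members in mRNA, where 32% of all tested genes did, and for 21 in nascent RNA, where 21.2% did. They lay above for 1 member each, against 20.4% in mRNA and 20.5% in nascent RNA. In the total over 4sU ratio 12 members were lower throughout and 3 higher, against 15.5% and 7.45%.

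**Figure D2:**
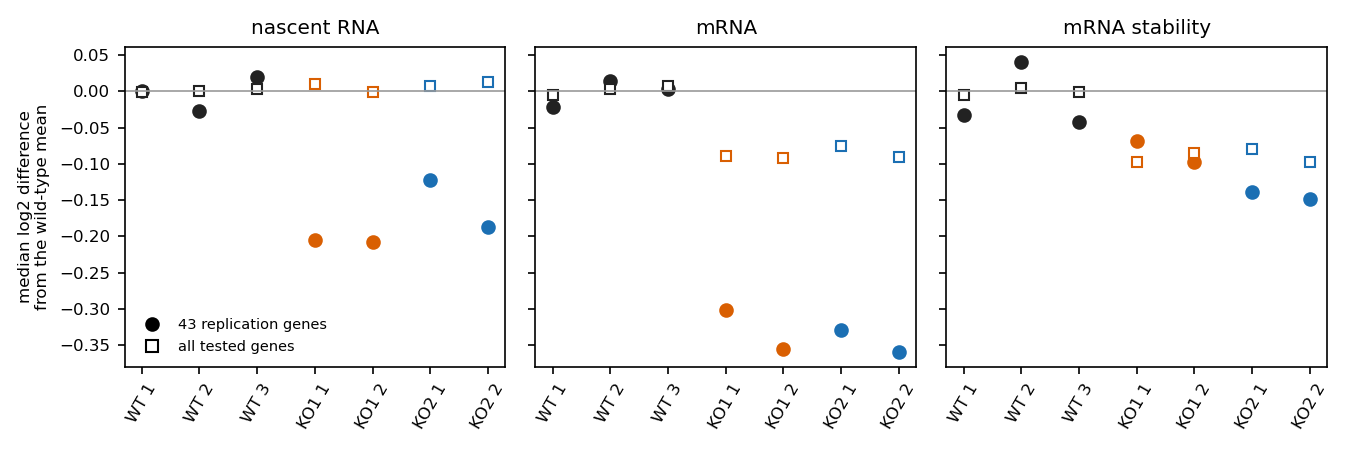
Median log2 difference from the wild-type mean (y axis) over the 43 replication genes (filled circles) and over all tested genes (open squares) in each culture (x axis; KO1 and KO2 are the KO clones), for nascent RNA, mRNA and the ratio of total over 4sU RNA. With TMM scaling the members lie below all genes in all 4 KO cultures for nascent RNA and mRNA, with mRNA medians of -0.36 to -0.30.

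**Figure D3:**
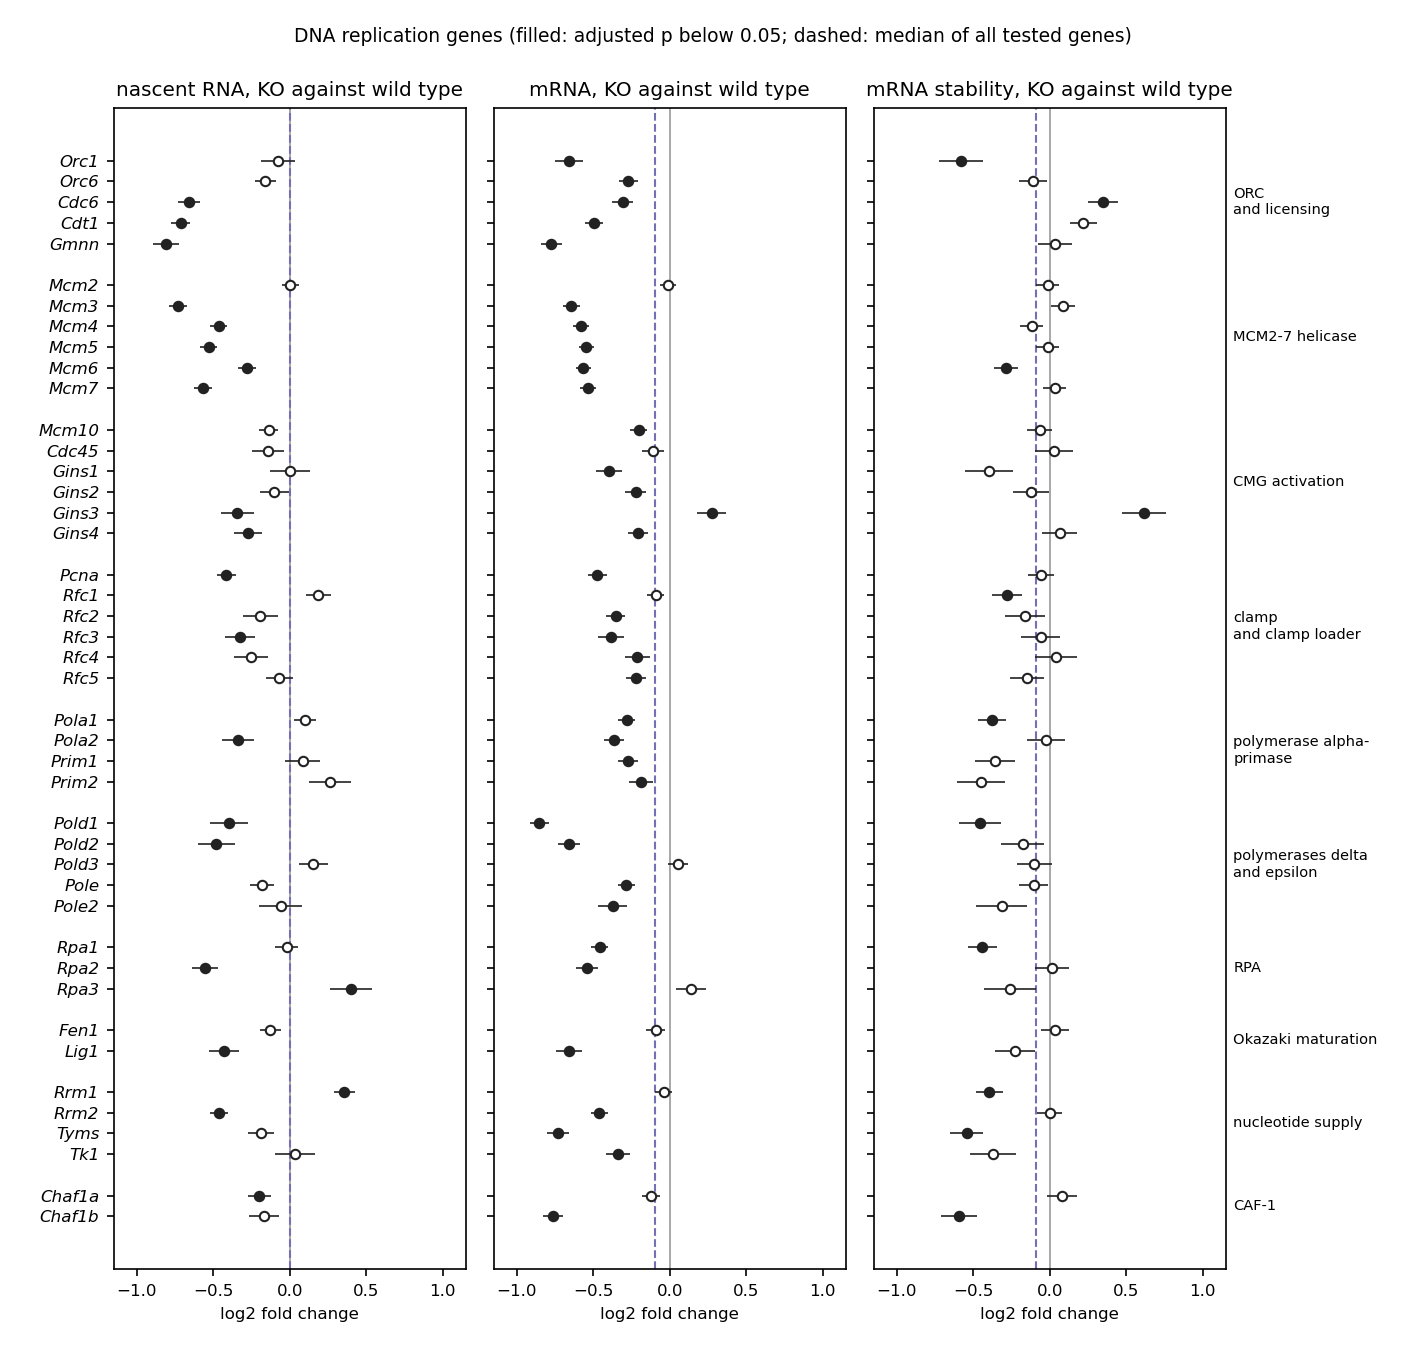
Log2 fold change, KO against wild type, with its SE (x axis) for each replication gene by group (y axis), for nascent RNA, mRNA and mRNA stability; filled points have an adjusted p below 0.05 in edgeR and the dashed line is the median of all tested genes. Filled mRNA points lie to the left for 34 genes and to the right for Gins3, under TMM scaling.

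Promoter sequence was read for these genes from RefSeq on GRCm38.p6, as windows from 250 bases before to 50 after a gene's start, which were given for 35 of the 43. E2F factors bind an 8-base core, searched here on both strands as TTTGGCGC, TTTCCCGC, TTTGCCGC and TTTCGCGC, with each of 20 matches counted where matches overlapped. A match was found in 14 of 35 members and in 11 of 43 other replication pathway genes with a window (25.6%). It was found in 496 of 10041 tested genes with a window (4.94%) and in 744 of all 32851 windows (2.26%). The 14 were Orc1, Cdc6, Cdt1, Mcm3, Mcm5, Mcm6, Mcm7, Gins3, Rfc3, Pola1, Pold1, Pold3, Pole2 and Lig1. Windows of 30 bases are shown for members described below, to let their motifs be compared, with a match in capitals and the letters read along the gene's own strand. The Mcm5 and Mcm6 windows each also hold a further match, GCGCCAAA and GCGCGAAA, which overlaps the letters in capitals. The matches shown for Cdt1, Mcm3 and Pold1 lie after the start of the gene. Orc1 lies on the plus strand at chr4:108579416-108579445, Cdt1 on the plus strand at chr8:122568035-122568064, just after the start of the gene, and Mcm3 on the minus strand at chr1:20820263-20820292. Mcm5 lies on the plus strand at chr8:75109345-75109374, Mcm6 on the minus strand at chr1:128359797-128359826, Gins3 on the plus strand at chr8:95633507-95633536 and Pold1 on the minus strand at chr7:44548766-44548795.
Orc1: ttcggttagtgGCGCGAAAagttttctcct
Cdt1: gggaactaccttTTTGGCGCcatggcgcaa
Mcm3: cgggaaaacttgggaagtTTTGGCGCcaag
Mcm5: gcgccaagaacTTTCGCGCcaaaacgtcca
Mcm6: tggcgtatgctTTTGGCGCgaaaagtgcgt
Gins3: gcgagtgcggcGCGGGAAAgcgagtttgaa
Pold1: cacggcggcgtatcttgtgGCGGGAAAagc

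Of the 14 members with a match, 12 fell in mRNA and 10 in nascent RNA, with median log2 changes of -0.51 and -0.37. Of the 21 with a window and no match, 14 fell in mRNA and 6 in nascent RNA, with medians of -0.27 and -0.14. Of all tested genes, 31% fell in mRNA and 21% in nascent RNA. The share that fell among all tested genes with a match, or without it, was not counted. These counts describe letters in a window and no difference between them was tested.

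Origin recognition and licensing genes fell together in mRNA, 5 of 5 (3 of 5 under library-size scaling), and 3 of 5 fell in nascent RNA under both scalings. Values below are given for the 3 wild-type cultures, then for clone 1 and clone 2. Gmnn encodes geminin, which holds CDT1 inactive after origins have fired. Its nascent RNA was 115, 111 and 127 CPM in wild type, 58.9 and 67.4 in clone 1 and 72.5 and 69.6 in clone 2. Its mRNA was 118, 114 and 123 CPM, then 62.2 and 68.6, then 75.5 and 69.9. Every KO culture lay below every wild-type culture in both, and the log2 changes were -0.81 ± 0.09 (SE; adjusted p = 8.21e-12) in nascent RNA and -0.77 ± 0.07 (adjusted p = 4.69e-14) in mRNA. Cdt1, the loading factor that geminin inhibits, had 433, 408 and 381 CPM of nascent RNA in wild type, 237 and 244 in clone 1 and 257 and 254 in clone 2. Its mRNA was 270, 275 and 250 CPM, then 189 and 186, then 204 and 173. Again the groups did not overlap, with log2 changes of -0.71 ± 0.06 (adjusted p = 8.7e-15) and -0.49 ± 0.06 (adjusted p = 2.32e-10), and the stability change of 0.22 ± 0.09 had an adjusted p of 0.0796.

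Cdc6, the ATPase that recruits CDT1 and MCM2-7, fell in nascent RNA and in mRNA but not to the same extent. Nascent RNA was 192, 190 and 204 CPM in wild type, 113 and 117 in clone 1 and 144 and 121 in clone 2, and mRNA was 119, 114 and 113 CPM, then 91.4 and 91.7, then 98.6 and 91.1. Neither overlapped, with log2 changes of -0.66 ± 0.07 (adjusted p = 3.09e-11) and -0.31 ± 0.07 (adjusted p = 0.000116; -0.15 with an adjusted p of 0.0582 under library-size scaling). Its log2 total over 4sU was -0.68, -0.73 and -0.85 in wild type and -0.30, -0.35, -0.55 and -0.41 in KO, higher in all 4 KO cultures, and stability rose by 0.35 ± 0.10 (adjusted p = 0.012). That call was lost without wild-type culture 3, where the change was 0.31 with an adjusted p of 0.0699.

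Orc1, the largest origin recognition subunit and the one whose level follows the cell cycle, showed the reverse order. In nascent RNA it had 105, 114 and 133 CPM in wild type, 105 and 125 in clone 1 and 133 and 85.4 in clone 2, and the groups overlapped. Its mRNA was 188, 183 and 177 CPM, then 118 and 119, then 109 and 118, with every KO culture lower. The mRNA change was -0.66 ± 0.09 (adjusted p = 1.7e-06) and the nascent change -0.08 ± 0.11 (adjusted p = 0.624). Stability fell by 0.58 ± 0.14 on the log2 scale (adjusted p = 0.00909), from ratios of 0.84, 0.68 and 0.41 to 0.16, -0.08, -0.29 and 0.46, which overlapped through the second clone 2 culture. Without wild-type culture 1 or without wild-type culture 2 that call was lost, with changes of -0.49 and -0.55 and adjusted p of 0.0722 and 0.074. Orc6, a further origin recognition subunit, fell in mRNA by 0.27.

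The MCM2-7 helicase is a ring of 6 related subunits that unwinds DNA at the fork, and 5 of the 6 fell in both nascent RNA and mRNA (4 in nascent RNA under library-size scaling, with Mcm2 higher). The mRNA changes of Mcm3, Mcm4, Mcm5, Mcm6 and Mcm7 lay between -0.64 and -0.54, and their nascent changes between -0.73 and -0.28. Mcm3 showed the largest of both. Its nascent RNA was 544, 485 and 605 CPM in wild type, 330 and 326 in clone 1 and 349 and 308 in clone 2, and its mRNA 677, 706 and 692 CPM, then 438 and 446, then 451 and 436. No KO culture reached the lowest wild-type culture, and the log2 changes were -0.73 ± 0.06 (adjusted p = 5.31e-16) and -0.64 ± 0.05 (adjusted p = 2.48e-15).

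Mcm6 was the single subunit of the ring with a call in stability, and no difference between subunits was tested. Nascent RNA was 265, 284 and 290.6 CPM in wild type, 243 and 232 in clone 1 and 236 and 214 in clone 2. Its mRNA was 785, 795 and 770 CPM, then 525 and 519, then 540 and 534. Both sets were separate, but the nascent change of -0.28 ± 0.06 (adjusted p = 0.000102; -0.07 under library-size scaling, adjusted p = 0.312) was smaller than the mRNA change of -0.57 ± 0.05 (adjusted p = 1.86e-14). The log2 total over 4sU ratio was 1.56, 1.48 and 1.40 in wild type and 1.11, 1.16, 1.19 and 1.32 in KO, and stability fell by 0.29 ± 0.08 (adjusted p = 0.00917). With TMM within each assay that stability change was -0.20 (adjusted p = 0.102), and without wild-type culture 1 it was -0.25 (adjusted p = 0.0722).

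Mcm2, the remaining subunit, had no call in any measure with TMM. Nascent RNA was 346, 350 and 349 CPM in wild type, 338 and 347 in clone 1 and 373 and 338 in clone 2. Total RNA was 690, 703 and 747 CPM, then 684 and 698, then 738 and 713. The groups overlapped in both, and the changes were 0.00 ± 0.06 in nascent RNA (adjusted p = 0.975) and -0.01 ± 0.05 in mRNA (adjusted p = 0.893). Under library-size scaling both were calls, 0.21 in nascent RNA (adjusted p = 0.00182) and 0.15 in mRNA (adjusted p = 0.013). Mcm2 lies on chromosome 6, whose 735 tested genes had a median change 0.55 above that of the other chromosomes in nascent RNA and 0.55 above it in mRNA, and -0.04 relative to them in stability. The shift on chromosome 6 was 0.52 in mRNA in clone 1 and 0.56 in clone 2. Relative to the chromosome 6 median, Mcm2 was at -0.53 in nascent RNA and -0.44 in mRNA, which placed it at 16.9% and 19.05% of the ranks on that chromosome. The part of chromosome 6 in the value of Mcm2 was not tested.

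**Figure D4:**
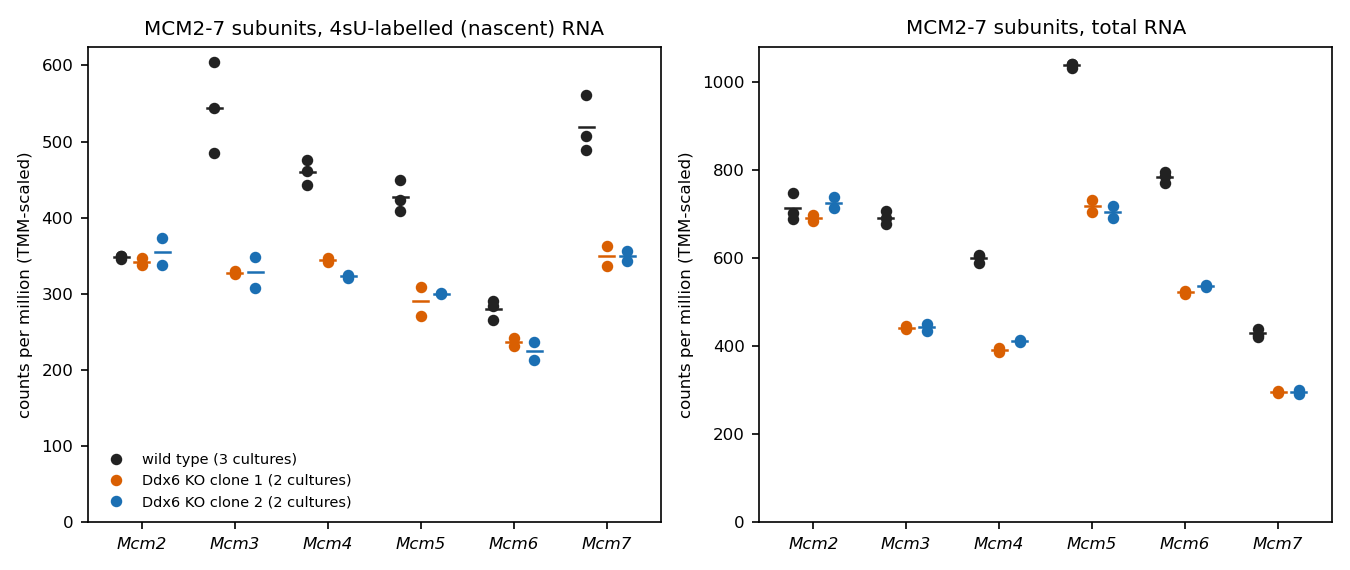
Nascent RNA (left) and total RNA (right) of the 6 MCM2-7 subunits in TMM-scaled CPM (y axis, from 0); points are single cultures and bars their means, for wild type (black), KO clone 1 (orange) and KO clone 2 (blue). Mcm3, Mcm4, Mcm5, Mcm6 and Mcm7 are lower in every KO culture, and the Mcm2 points of the groups overlap.

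Per kilobase of exon, the wild-type total RNA of the subunits ran from Mcm5 at 298 to 301 CPM per kb, through Mcm3 at 223 to 233, Mcm2 at 205 to 222, Mcm6 at 176 to 182 and Mcm4 at 164 to 169, to Mcm7 at 142 to 148. Each neighbouring pair was separate over the 3 cultures, Mcm3 and Mcm2 narrowly. In KO, Mcm2 at 203 to 219 overlapped Mcm5 at 200 to 212, and both lay above Mcm3 at 144 to 149. Mcm6 at 119 to 123, Mcm4 at 108 to 115 and Mcm7 at 98.2 to 101 kept their places below. The ratio of Mcm2 to its partners on this scale thus differed between the groups, while the order of the other 5 did not.

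Among the 6 genes that turn the loaded ring into an active helicase, 4 fell and 1 rose in mRNA and 2 fell in nascent RNA. Under library-size scaling 1 fell in mRNA and 0 in nascent RNA, and with TMM within each assay 1 fell in mRNA, since Mcm10, Gins2 and Gins4 lost their mRNA calls in both. Gins3, a subunit of the GINS tetramer, was the single member whose mRNA rose, with a fall in nascent RNA. Its nascent RNA was 62.6, 65.2 and 65.9 CPM in wild type, 46.7 and 52.4 in clone 1 and 59.9 and 45.4 in clone 2, all KO cultures lower. Its mRNA was 35.9, 40.4 and 34.3 CPM, then 49.5 and 43.9, then 47.2 and 37.8, with the second clone 2 culture inside the wild-type range. Nascent RNA fell by 0.34 ± 0.11 (adjusted p = 0.00771; adjusted p = 0.29 under library-size scaling) and mRNA rose by 0.27 ± 0.10 (adjusted p = 0.0139). Leaving out culture 1 or 3 of wild type, or the first of clone 1, ended the mRNA call, with adjusted p of 0.0538, 0.0962 and 0.0503. The ratio was -0.79, -0.68 and -0.93 in wild type and 0.08, -0.25, -0.34 and -0.26 in KO, without overlap, and stability rose by 0.62 ± 0.14 (adjusted p = 0.00208), the largest rise among the members.

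Gins1, another GINS subunit, had low nascent RNA, at 33.5, 26.2 and 26.6 CPM in wild type and 25.5, 26.5, 33.7 and 28.6 in KO, with full overlap. Its mRNA was 66.8, 67.8 and 61.5 CPM in wild type and 53.7, 45.9, 49.4 and 49.6 in KO, all lower, a change of -0.40 ± 0.08 (adjusted p = 6.96e-05). Gins2 and Gins4 fell in mRNA by 0.22 and 0.21, and Mcm10, which binds the activated helicase, by 0.20. Cdc45, the factor that completes the active helicase, had an mRNA change of -0.11 ± 0.07 (adjusted p = 0.2).

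For the clamp and its loader, 5 of 6 fell in mRNA and 2 in nascent RNA (3 and 1 under library-size scaling, with Rfc1 higher in nascent RNA). Pcna encircles DNA and tethers the polymerases. Nascent Pcna RNA was 507, 483 and 470 CPM in wild type, 366 and 331 in clone 1 and 367 and 393 in clone 2. Its mRNA was 195, 229 and 219 CPM, then 160 and 155, then 155 and 148. Both were lower in each KO culture, by -0.41 ± 0.06 (adjusted p = 6.05e-08) and -0.47 ± 0.06 (adjusted p = 1.53e-09) on the log2 scale, with a stability change of -0.06 ± 0.09 (adjusted p = 0.74). Reads that map to Pcna and to a pseudogene copy alike were discarded, which can lower its counts. Rfc1, the large subunit of the loader, had 350, 341 and 343 CPM of total RNA in wild type and 322, 318, 325 and 329 in KO, all lower, with an mRNA change of -0.09 ± 0.06 (adjusted p = 0.163). Its nascent RNA was 84.6, 76.2 and 84.3 CPM in wild type and 96.2, 83.4, 89.1 and 102 in KO, which overlapped. Stability fell by 0.28 ± 0.10 (adjusted p = 0.0483), a call that was lost in 16 of 20 alternatives. The small subunits Rfc2, Rfc3, Rfc4 and Rfc5 fell in mRNA by 0.21 to 0.39, those of Rfc4 and Rfc5 with TMM over all libraries and not by library size.

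Polymerase alpha-primase makes the RNA-DNA primers of both strands, and 4 of 4 genes fell in mRNA while 1 fell in nascent RNA. Under library-size scaling 1 of 4 fell in mRNA, and in nascent RNA 3 rose and 0 fell, so these counts rest on TMM. Pola2, its regulatory subunit, had 52.4, 51.4 and 53.3 CPM of nascent RNA in wild type and 39.3, 35.1, 47.9 and 43.1 in KO. Its mRNA was 124, 126 and 129 CPM in wild type and 97.3, 98.5, 97.3 and 101 in KO. Both were separate, with changes of -0.34 ± 0.10 (adjusted p = 0.00611; lost under library-size scaling) and -0.36 ± 0.07 (adjusted p = 6.31e-06). Pola1, the catalytic subunit, overlapped in nascent RNA, at 139, 154 and 127 CPM in wild type and 155, 151, 151 and 141 in KO. Its mRNA was 325, 353 and 340 CPM in wild type and 297, 265, 271 and 285 in KO, a change of -0.28 ± 0.06 (adjusted p = 3.33e-05; -0.13 with an adjusted p of 0.0606 under library-size scaling, where its nascent change was a call of 0.30 with an adjusted p of 0.000387). The ratio was 1.23, 1.19 and 1.42 in wild type and 0.93, 0.81, 0.84 and 1.01 in KO, lower in all 4, and stability fell by 0.38 ± 0.09 (adjusted p = 0.00324). For the primase genes Prim1 and Prim2 the stability changes were -0.36 ± 0.13 and -0.45 ± 0.16, with adjusted p of 0.0611 and 0.0516, and every KO ratio lay below wild type in both. With the culture as a replicate block, which pairs the libraries of a culture, Prim2 passed with an adjusted p of 0.0482.

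Polymerases delta and epsilon copy the bulk of the genome, and 4 of 5 genes fell in mRNA and 2 in nascent RNA (2 and 1 under library-size scaling, with Pold3 higher in both). Pold1 had the largest mRNA fall of all members. Its mRNA was 250, 242 and 224 CPM in wild type, 130 and 133 in clone 1 and 139 and 125 in clone 2, a change of -0.85 ± 0.06 (adjusted p = 2.28e-17) with no overlap. Nascent RNA was 46.3, 28.8 and 35.3 CPM in wild type and 26.3, 28.4, 27.7 and 27.8 in KO, so the groups were separate by a small margin over the lowest wild-type culture. The nascent change was -0.40 ± 0.12 (adjusted p = 0.00772) and, without wild-type culture 1, -0.22 (adjusted p = 0.199). Stability fell by 0.46 ± 0.14 (adjusted p = 0.0218), from ratios of 2.42, 3.05 and 2.65 to 2.29, 2.21, 2.30 and 2.15. Without wild-type culture 2 that change was -0.29 (adjusted p = 0.263), and the call was also lost without either second KO culture. In all, it was lost in 10 of 20 alternatives, DESeq2 and each clone alone among them.

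Pold2, which bridges the delta subunits, had 133, 154 and 150 CPM of mRNA in wild type and 85.4, 91.5, 93.9 and 99.0 in KO, and 43.6, 48.8 and 36.0 CPM of nascent RNA in wild type and 32.0, 26.5, 29.8 and 33.6 in KO. Both were lower throughout, with changes of -0.66 ± 0.07 (adjusted p = 8.1e-12) and -0.48 ± 0.12 (adjusted p = 0.000819). Pold3, a further delta subunit, was the member of this group with no call, at 0.05 ± 0.06 in mRNA (adjusted p = 0.504). Pole, the catalytic subunit of polymerase epsilon, and its partner Pole2 fell in mRNA by 0.28 and 0.37, calls that library-size scaling lost.

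RPA coats single-stranded DNA as a trimer, and its 3 genes took 3 different courses. Rpa2 fell in both layers. Nascent Rpa2 RNA was 160, 145 and 165 CPM in wild type and 86.9, 118, 125 and 96.9 in KO, and its mRNA was 133, 146 and 144 CPM in wild type and 96.8, 97.4, 98.1 and 95.5 in KO. The groups did not overlap, and the changes were -0.56 ± 0.08 (adjusted p = 2.21e-07) and -0.54 ± 0.07 (adjusted p = 1.12e-08). Rpa1, the largest subunit, had nascent RNA of 100, 102 and 97.9 CPM in wild type and 94.5, 101, 95.1 and 105 in KO, overlapping, with a change of -0.02 ± 0.08 (0.18 with an adjusted p of 0.0377 under library-size scaling). Its mRNA was 593, 568 and 556 CPM in wild type and 447, 402, 419 and 397 in KO, a separate and lower set. The mRNA change was -0.46 ± 0.05 (adjusted p = 7.93e-11). Stability fell by 0.44 ± 0.09 (adjusted p = 0.000612), from ratios of 2.55, 2.46 and 2.499 to 2.24, 1.99, 2.13 and 1.92.

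Rpa3, the smallest RPA subunit, is encoded on chromosome 6 like Mcm2. Nascent Rpa3 RNA was 26.4, 28.8 and 20.5 CPM in wild type and 37.4, 35.4, 27.7 and 32.3 in KO, overlapping in 1 culture of clone 2. Its mRNA was 33.9, 34.4 and 31.2 CPM in wild type and 37.8, 35.3, 36.3 and 36.7 in KO, higher in all 4. Nascent RNA rose by 0.40 ± 0.14 (adjusted p = 0.0148), and mRNA, at 0.14 ± 0.10, had an adjusted p of 0.244 (0.30 with an adjusted p of 0.0104 under library-size scaling). Relative to the chromosome 6 median it was -0.14 in nascent RNA and -0.29 in mRNA. The nascent call was lost without wild-type culture 3 (0.26, adjusted p = 0.182) and without the first clone 1 culture (0.34, adjusted p = 0.061), and also with the replicate number as a replicate block (adjusted p = 0.0604).

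Of the genes for Okazaki fragment maturation, Lig1, the replicative DNA ligase, fell. Nascent Lig1 RNA was 210, 244 and 213 CPM in wild type and 164, 135, 163 and 195 in KO. Its mRNA was 376, 435 and 430 CPM in wild type and 239, 255, 266 and 290 in KO. Each KO culture was lower in both, with changes of -0.43 ± 0.10 (adjusted p = 0.0013; lost under library-size scaling) and -0.66 ± 0.08 (adjusted p = 9.03e-07). Fen1, the flap endonuclease that works before it, was at -0.09 ± 0.06 in mRNA (adjusted p = 0.222) and -0.13 ± 0.07 in nascent RNA (adjusted p = 0.149).

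Nucleotide supply genes diverged within a single enzyme. Ribonucleotide reductase makes deoxynucleotides from a large subunit, Rrm1, and a small subunit, Rrm2, that is destroyed outside S phase. Rrm2 nascent RNA was 439, 437 and 406 CPM in wild type and 301.7, 323, 332 and 284 in KO, and its mRNA was 338, 349 and 368 CPM in wild type and 253, 242, 260 and 267 in KO. Both were lower throughout, with changes of -0.46 ± 0.06 (adjusted p = 3.07e-09) and -0.46 ± 0.06 (adjusted p = 3.89e-10), and stability had no call (0.00 ± 0.08, adjusted p = 0.997). Rrm1 nascent RNA was 137, 146 and 156 CPM in wild type and 179, 184, 197 and 189 in KO, higher in all 4. Its mRNA was 370, 413 and 371 CPM in wild type and 366, 363, 384 and 383 in KO, overlapping. Nascent RNA rose by 0.36 ± 0.07 (adjusted p = 2.11e-05), mRNA had no call at -0.04 ± 0.05 (adjusted p = 0.566), and stability fell by 0.40 ± 0.09 (adjusted p = 0.00116).

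Tyms, thymidylate synthase, fell in mRNA, with a smaller nascent change that had no call. Nascent RNA was 103, 105 and 101 CPM in wild type and 101, 86.5, 85.2 and 89.0 in KO. Every KO culture was lower, the first of clone 1 narrowly, and the change of -0.19 ± 0.08 had an adjusted p of 0.0622. The nascent fall was a call in DESeq2 (adjusted p = 0.0347), with the single-end run alone (0.0281) and without the first clone 1 culture (0.0222). The mRNA was 94.6, 99.4 and 94.3 CPM in wild type and 61.7, 61.6, 56.0 and 52.2 in KO, a separate set with a change of -0.73 ± 0.07 (adjusted p = 7.35e-13). Ratios of -0.12, -0.08 and -0.10 in wild type stood against -0.70, -0.49, -0.60 and -0.76 in KO, and stability fell by 0.54 ± 0.11 (adjusted p = 0.000388). A pseudogene of Tyms is annotated, and reads shared with it were discarded. Tk1, thymidine kinase of the salvage route, fell in mRNA by 0.34.

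CAF-1 places new histones behind the fork. Chaf1b, its middle subunit, had nascent RNA of 50.7, 58.0 and 52.9 CPM in wild type and 45.3, 49.8, 49.7 and 47.5 in KO, slightly lower in each, with a change of -0.17 ± 0.10 (adjusted p = 0.167). Its mRNA was 145, 163 and 154 CPM in wild type and 91.4, 89.3, 94.6 and 87.4 in KO, a change of -0.76 ± 0.06 (adjusted p = 2e-15). The ratio went from 1.503, 1.49 and 1.53 to 1.01, 0.83, 0.92 and 0.87 without overlap, and stability fell by 0.60 ± 0.12 (adjusted p = 0.000242), the largest fall among the members. Chaf1a, the large subunit, had nascent RNA of 101, 105 and 113 CPM in wild type and 93.4, 94.9, 94.2 and 89.3 in KO, with a change of -0.20 ± 0.08 (adjusted p = 0.0299; 0.00 under library-size scaling). Leaving out culture 2 or 3 of wild type or either clone 2 culture also ended that call, with adjusted p of 0.054 to 0.146. Its mRNA of 156, 163 and 155 CPM in wild type and 139, 147, 153 and 143 in KO changed by -0.12 ± 0.06 (adjusted p = 0.0867).

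Set side by side, the members divided by which layer carried a call. In 14 genes nascent RNA and mRNA fell and stability had no call, among them Cdt1, Gmnn, Mcm3, Mcm4, Mcm5, Mcm7, Pcna and Rrm2. In 5 genes, Orc1, Pola1, Rpa1, Tyms and Chaf1b, mRNA and stability fell with no call in nascent RNA, and in 2, Mcm6 and Pold1, all 3 measures fell. Not every call of Mcm6 and Pold1 held. Their stability calls were lost in 5 and 10 alternatives and their nascent calls in 1 and 4. For 12 genes mRNA fell with no call in the other measures. Rrm1 rose in nascent RNA and fell in stability with no mRNA call, Cdc6 fell in nascent RNA and mRNA and rose in stability, and Gins3 fell in nascent RNA and rose in both others. Mcm2, Cdc45, Pold3 and Fen1 had no call. These divisions are those under TMM over all libraries. How often each combination of calls occurred among all tested genes was not counted. The divisions therefore describe the members and are not shown to be particular to them. The layers share libraries, since stability is the difference of the other changes, so a gene's calls are not independent of each other. Of the 9 genes with lower stability, 8 lay above the 50th percentile of the wild-type total over 4sU ratio, with Tyms at the 45.1st percentile. Of all 43 members, 32 did. The wild-type ratio is also part of the stability change, so the ratio and the change are linked by construction.

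**Figure D5:**
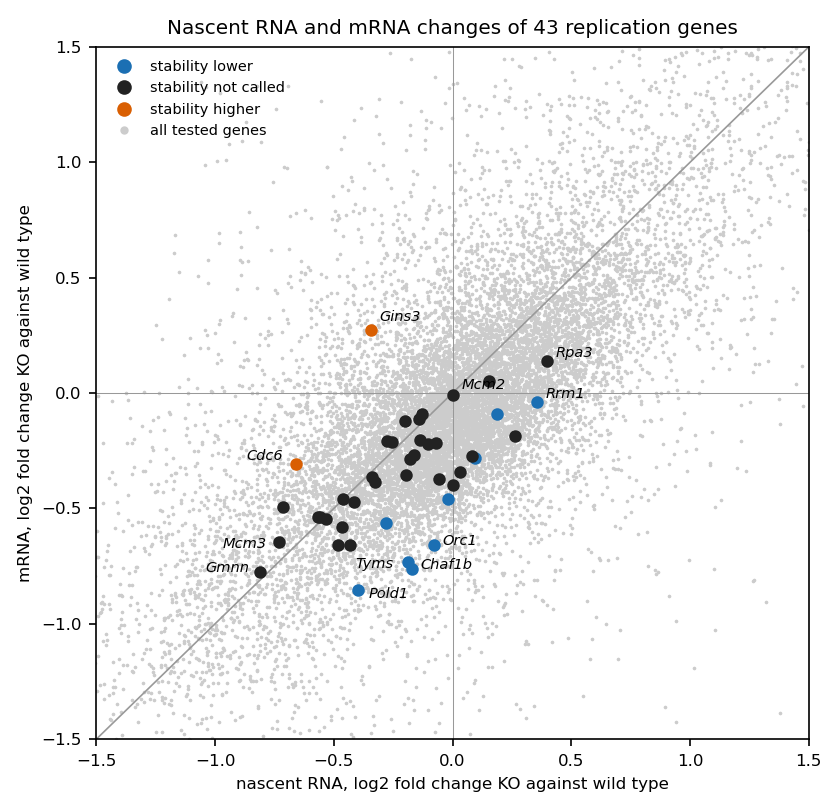
Log2 fold change of nascent RNA (x axis) and of mRNA (y axis), KO against wild type, for the 43 replication genes (large points, coloured by the stability call) and all tested genes (grey); the diagonal marks equal change, and 993 genes beyond ±1.5 are outside the axes. Under TMM scaling Orc1, Chaf1b, Tyms and Pold1 lie below the diagonal, Gins3 and Cdc6 above it, and Mcm2 at the origin.

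Sites of the ESC-enriched miRNAs were counted because DDX6 works with the miRNA machinery. The seed, bases 2 to 8, was the same in 5 of their mature sequences and is shown in capitals for 2 of these (RefSeq, GRCm38.p6). In miR-291b-3p and miR-302c-3p bases 2 to 8 differ, being AAGUGCA and AGUGCUU, and matches to those letters were not searched. miR-294-3p is encoded on the plus strand at chr7:3220691-3220712 and miR-302d-3p on the plus strand at chr3:127545665-127545687.
miR-294-3p: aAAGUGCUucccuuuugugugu
miR-302d-3p: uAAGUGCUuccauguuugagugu
A match to the seed, the letters AGCACTT on the transcript strand, was found in the 3′ UTR of the principal transcript for 6 of 43 members (13.95%) and for 1890 of 12093 tested protein-coding genes (15.6%). The 6 were Cdc6, Gins3, Rfc2, Rpa2, Tyms and Chaf1a. Windows of 30 bases are shown for 3 members, picked because their stability results differed, from the Gencode M21 transcripts on GRCm38. Chaf1a holds a further match, at base 376 of its 3′ UTR, which is not shown. Gins3 lies at chr8:95644289-95644318 on the plus strand, Tyms at chr5:30060520-30060549 on the minus strand and Chaf1a at chr17:56067778-56067807 on the plus strand, all in the 3′ UTR.
Gins3: tgtgcggattgAGCACTTgaagagcagaga
Tyms: cttcaggtagaAGCACTTgcagtccctcaa
Chaf1a: tcatgataaagAGCACTTtgtcctacattc
With the same letters in the 3′ UTR, stability rose for Gins3, fell for Tyms and was not called for Chaf1a, at 0.08 ± 0.10 (adjusted p = 0.677). Of the other genes with a match, stability rose for Cdc6 and was not called for Rfc2 and Rpa2. In no member was the match followed by an A, a form found in 3.13% of the tested protein-coding genes. The part of these sites in the stability values was not tested.

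Other genes of the pathway, 50 in all, changed in both directions. In mRNA 27 fell and 5 rose, with a median of -0.20, against 31% and 19.5% of all tested genes. In nascent RNA 16 fell and 10 rose, against 21% and 20.6%. In stability 9 fell and 0 rose (edgeR), against 8.6% and 3.78%, and 18 had an unadjusted p below 0.05 in either direction. Among the 5985 tested genes at or above the lowest member in mean total RNA, 17.7% fell and 5.6% rose in stability. Under library-size scaling the counts were 4 lower and 16 higher in nascent RNA, against 12.7% and 36.3% of all tested genes. In mRNA they were 18 lower and 12 higher, against 19.4% and 29.4%. Dut, the dUTPase that keeps uracil out of DNA, showed the largest mRNA fall, from 250, 259 and 237 CPM in wild type to 129, 115, 125 and 111 in KO, a log2 change of -1.05 ± 0.06 (adjusted p = 3.72e-22). Rnaseh2b, a subunit of the nuclease that removes ribonucleotides from DNA, fell by 0.80 ± 0.08 (adjusted p = 1.6e-13), and Chtf18, of an alternative clamp loader, by 0.67 ± 0.06 (adjusted p = 7.36e-14). Pclaf, which binds PCNA, rose from 34.8, 35.2 and 30.8 CPM to 54.7, 52.0, 70.1 and 61.4, by 0.83 ± 0.09 (adjusted p = 5.96e-11). Rrm2b, the alternative small subunit of ribonucleotide reductase, rose from 32.2, 30.3 and 22.5 CPM to 46.1, 46.5, 50.3 and 45.8, by 0.75 ± 0.10 (adjusted p = 5.85e-09), opposite to Rrm2. Pold4 rose by 0.57 ± 0.24 (adjusted p = 0.0479) at 3.52 to 6.91 CPM, near the filter, and its call was lost in 10 alternatives.

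Among 21 E2F and G1/S regulators, 7 rose and 7 fell in mRNA, against 19.5% and 31% of all tested genes. The counts were 10 and 4 under library-size scaling and 10 and 6 with TMM within each assay. Of the E2F factors, E2f1, E2f4 and E2f7 fell by 0.57, 0.53 and 0.36 and E2f6 rose by 0.32, while E2f3, an activator like E2f1, was at 0.16 ± 0.07 (adjusted p = 0.052). Ccnd1, Ccnd3, Cdk2 and Cdk4, cyclins and kinases of G1 and S-phase entry, fell by 0.21 to 0.61. Rbl2, a repressor that works with E2F, rose by 0.59, Cdkn1b, a kinase inhibitor, by 0.52, and Ccne1, Ccne2 and Cdk6 by 0.41, 0.63 and 1.24. Ccnd2 also rose, from 0.185 to 0.918 CPM in wild type to 7.84 to 10.8 CPM in KO. Cdkn1b and Ccnd2 lie on chromosome 6, whose tested genes had a median mRNA change of 0.43, against -0.12 on the other chromosomes. The part of chromosome 6 in their values was not tested.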

How the data were processed

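RNA was measured in 7 cultures, each giving a 4sU library and a total RNA library. Per the study's methods, the authors trimmed reads with cutadapt 1.14, aligned them to mm10 with STAR 2.5.3a keeping uniquely mapped reads, and counted reads over Gencode M14 exons by strand with featureCounts 1.5.3. The deposited values are raw counts per gene. The 4sU libraries were sequenced 2 times, single-end and then paired-end, and both count columns were summed per library.

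Computed here: a gene was kept when 3 or more of the 14 libraries reached 3 CPM (14518 of 51467) and fitted in edgeR 4.0.16 (robust quasi-likelihood, R 4.3.3) with TMM over all libraries. Contrasts were KO against wild type in 4sU RNA (nascent RNA), in total RNA (mRNA), and their interaction (mRNA stability), with Benjamini-Hochberg adjustment over all tested genes and a call at an adjusted p below 0.05. Values are TMM-scaled CPM. Ratios are log2 of total over 4sU CPM after adding 0.5 to each. Errors of changes are SE. The authors' methods name a linear model in limma. Alternatives run here were limma-voom (limma 3.58.1) and DESeq2 1.42.0. The script was tested on simulated data. Depth was 2441639 to 3570192 counts for 4sU and 5724179 to 7369651 for total RNA.

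Symbols came from Gencode M21. Values in every culture are given for the called member with the largest rise and fall of each group in each measure, and for Pcna, Rrm2, Cdt1 and Mcm2. Of 50 other pathway genes the 3 largest mRNA rises and falls are named. Members and lists were chosen with earlier results of these data known. Cdc45, Fen1 and Pold3, and the E2F and G1/S genes and markers, were named after their values were seen. Uniquely mapped reads alone were counted, so genes with near-identical copies lose reads, and 10 members overlap another gene model on their strand. The labels do not say that cultures of a clone were started separately, so p-values measure the spread between these cultures, which may be technical. Both libraries of a culture came from 1 RNA extraction, which pairs them; their deviations from the group means correlated by 0.00354 to 0.125.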

Additional observations from a re-analysis of the deposited data

Results flagged for a closer look

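Of 72 sets of 4 KO values, 2 held 1 culture well outside the range of its neighbours (Dixon's test), where chance alone gives about 1 in 20. In total RNA, Orc1 was 109 CPM in the first clone 2 culture, below the other KO cultures, whose nearest value was 118. Cdc6 total RNA in that same culture was 98.6 CPM, above the 91.1 to 91.7 CPM of the other KO cultures. Without the first clone 2 culture both genes still fell in mRNA.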

How the results depend on the processing

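By library size alone, nascent calls among the members were 9 higher and 11 lower (2 and 19 with TMM) and mRNA calls 4 higher and 22 lower (1 and 34 with TMM). Under it the nascent change of Rpa1 was 0.18, that of Chaf1a 0.0049 and the mRNA change of Mcm2 0.15, each opposite in sign. TMM within each assay gave 2 higher and 28 lower in mRNA and 3 higher and 6 lower in stability, with the members' median stability change at -0.02 against -0.11. With the single-end run alone 1 member was higher in nascent RNA, and with the re-sequencing run alone 1 was higher in stability. Clone 2 alone gave 0 higher in mRNA, and in stability 1 higher and 5 lower, losing Orc1, Cdc6, Mcm6, Rfc1 and Pold1. Requiring a 2-fold change left 0 in every count. Leaving out 1 culture gave 1 to 3 higher and 17 to 20 lower in nascent RNA, 0 to 1 and 32 to 34 in mRNA, and 1 to 3 and 6 to 10 in stability. The members' median stability change relative to all genes, -0.02, ran from -0.057 to 0.027 leaving out 1 culture, and was above 0 without wild-type culture 2 and, at 0.0054, without the first clone 2 culture. The wild-type median ratio of 0.81 was 0.88 with the single-end run, 0.91 with the re-sequencing run and 0.75 to 0.84 leaving out 1 culture.

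Calls in the same direction in every alternative but the 2-fold threshold numbered 11 of 19 lower and 1 of 2 higher in nascent RNA, 22 of 34 and 0 of 1 in mRNA, and 5 of 9 and 1 of 2 in stability. With the replicate number as a replicate block, the nascent counts were 1 higher and 19 lower. Same-numbered libraries correlated by 0.0138 on average in 4sU RNA. Both libraries of a culture, which are known to be paired, correlated by as little as 0.00354. A low correlation therefore cannot show whether the numbers pair cultures. With the culture as a replicate block, stability had 2 higher and 10 lower, and no call changed but that of Prim2. Depth limits the 4sU values of low genes such as Gins1 and Rpa3.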
